A study of Danio rerio with 24 samples.

Results

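The genes described here are the light-sensing opsins of the zebrafish and the proteins that pass, amplify and end the light signal in rods and cones. They were chosen by symbol alone, and the opsins taken were those of named families such as OPN, tmtops, valop and parapinopsin. RRH, RGR and rgrb were not taken and stand with the visual cycle genes. The others taken were transducin subunits (GNAT and GNB3), PDE6 subunits, the kinases GRK1 and GRK7, visual arrestins and cyclic nucleotide channels. Guanylate cyclases named gc2 or gc3, their GUCA1 activators, recoverin and RGS9 were also taken. This gave 80 of the 35117 identifiers in the count files. No measured value entered this rule, but it was written with earlier results of these data known. By their known roles, 14 belong to the rod cascade, 23 to the cone cascade and 15 to calcium feedback and shutoff, while 24 are opsins outside the cone and rod groups (called non-visual here) and 4 are relatives with other known sites of use.

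The RNA came from whole animals of the line Tg(fli1:egfp), in which the fli1 regulatory sequence drives green fluorescent protein in blood vessel endothelium. All 6 groups carry this transgene. Animals developed in THC (tetrahydrocannabinol), in CBD (cannabidiol) or in the solvent DMSO, and were collected as larvae at 96 hours post-fertilisation (hpf) or as embryos at 10 hpf, with 4 libraries in each group. The submitters call the 4 libraries biological replicates. Whether clutches or tanks differed between them is not stated, so a p-value here covers the spread between these 4 libraries, which may be technical. The doses are not given either.

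In a vertebrate photoreceptor, light turns an opsin into the activator of transducin, transducin releases the phosphodiesterase PDE6 from its inhibitory subunit, PDE6 breaks down cyclic GMP, and channels held open by cyclic GMP close. Opsin kinases, arrestins and the RGS9 complex end the response, and calcium sensors (recoverin and the guanylate cyclase activators) tune it. Zebrafish have rods and 4 spectral types of cone, and the larval retina is known to rely on cones for its early vision. Many further opsins are expressed in the pineal organ, the brain, the inner retina and other tissues. An embryo of 10 hpf has no eye yet, while a larva of 96 hpf has a seeing retina.

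Depth was 14879976 to 29641377 counts per library, except for DMSO embryo library 4 with 125926. Taking 3 counts as the floor of detection, this floor equals 23.8 CPM there (CPM being counts scaled to a common library size), against 0.101 to 0.202 CPM in the other libraries. These floors use raw library totals. The CPM values below use rescaled totals, so 3 counts can stand at another value there, and the floors cannot be set directly against them. The floor covers counting error only. CPM values below are scaled over all 24 libraries together and are not divided by transcript length, so levels of different genes are given side by side. Shares of the summed CPM and ranks by CPM set genes against each other without that correction, so they describe counts and not numbers of transcripts. In whole animals, fewer cells of a type and less RNA per cell cannot be told apart. The table of gene names writes many symbols in the human style, and 12 symbols are shared by 26 of the 80 identifiers. These are given with their Ensembl identifier. Counts of near-identical copies, such as the tandem green and red opsin genes, are less certain than others.

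Larvae held far more RNA of these genes than embryos in each treatment. The 80 genes together took 0.558% to 1.25% of the counts of the 12 larval libraries, against 0.00246% to 0.00626% in the 11 deep embryo libraries. Of the 80 genes, 69 had at least 3 counts in all 12 larval libraries. Only 12 had at least 3 counts in all 11 deep embryo libraries, and 24 had so many in none of them.

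Each stage difference was tested with edgeR's quasi-likelihood test with Benjamini-Hochberg adjustment over the 22741 genes tested, with a threshold of 0.05 on the adjusted p. Between 96 and 10 hpf, 65 of the 71 tested members were higher and 2 lower in THC animals, where 44.5% of all genes tested were higher and 35.4% lower. In CBD animals 67 were higher and 1 lower, beside 42.4% and 35.6% of all genes. In DMSO animals 64 were higher and 1 lower, beside 42.7% and 34.4% of all genes. Most members passed the filter on low counts through their larval level alone, so these counts describe the set and do not set it apart from other genes. The stage contrasts depend on scaling: the median log2 fold change of all genes was 0.36 for THC, 0.25 for CBD and 0.32 for DMSO with TMM scaling, against 1.22, 1.08 and 1.14 with DESeq2 size factors, and the share of all calls that were higher was 55.7%, 54.3% and 55.4% with TMM against 71.4%, 70.7% and 71.5% with DESeq2 size factors. With those size factors, all genes higher made up 56.9% (THC), 54.7% (CBD) and 55% (DMSO) of the genes tested.

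**Figure D1:**
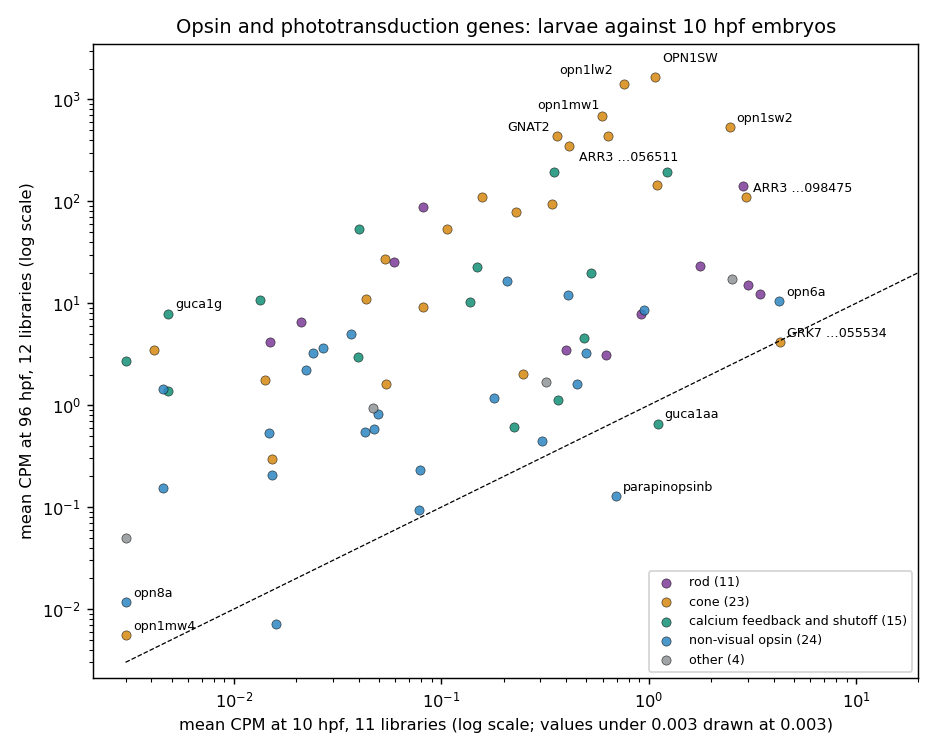
Mean CPM of 77 of the 80 genes in the 12 larval libraries (y axis, log scale) against its mean in the 11 deep embryo libraries (x axis, log scale), coloured by role, with the line of equal level dashed. The 4 main cone opsins lie at 0.596 to 2.45 CPM in embryos and far above the line. Their means over the DMSO larvae alone, not drawn, were 474 to 1557 CPM. By contrast, parapinopsinb, guca1aa and (on 5 counts in all) opn7a lie below the line and GRK7 ENSDARG00000055534 on it.

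Among rod genes, GNAT1, the alpha subunit of rod transducin, had 76.4, 58.3, 118 and 63.1 CPM in DMSO larvae, and 2 counts in all in the 4 DMSO embryo libraries. GNAT1 had at least 3 counts in 1 of the 11 deep embryo libraries, so it passed the filter through its larval level and its values are given without a test. The rod arrestin saga, which binds the activated pigment and stops its signal, had 22.3, 19.2, 33.5 and 25.1 CPM in DMSO larvae and 4 counts in all in DMSO embryos. Its paralog sagb was already present in embryos: it had 112, 106, 173 and 123 CPM in DMSO larvae, against 2.20, 4.46, 3.64 and 0 CPM in DMSO embryos, and rose by 5.25 on the log2 scale (SE 0.39, adjusted p = 6.72e-11, edgeR).

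The PDE6B identifiers, for the catalytic beta subunit of the rod phosphodiesterase, had at least 3 counts in all 11 deep embryo libraries. PDE6B ENSDARG00000011671 averaged 10.9 CPM in THC larvae, 14.5 in CBD larvae and 11.7 in DMSO larvae, against 4.10 CPM in THC embryos, 2.80 in CBD embryos and 2.60 in DMSO embryos. Its stage difference was 1.42 (THC), 2.34 (CBD) and 1.79 (DMSO) on the log2 scale, among the smaller rises of the set.

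Among cone genes, opn1sw2, the blue opsin, had 421, 287, 732 and 457 CPM in DMSO larvae, against 2.65, 1.91, 1.55 and 14.8 CPM in DMSO embryos, the last from 2 counts. Its stage difference was 7.76 on the log2 scale in DMSO animals (SE 0.51, adjusted p = 9.62e-12, edgeR). The green opsin opn1mw1 had 560, 343, 940 and 543 CPM in DMSO larvae, against 1.05, 0.289, 0.299 and 0 CPM in DMSO embryos. No larval library of these 2 opsins overlapped with an embryo library.

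The cone effectors followed the same order of stages. PDE6C, the catalytic subunit of the cone phosphodiesterase, had 125, 81.1, 173 and 126 CPM in DMSO larvae, against 1.40, 1.85, 0.896 and 0 CPM in DMSO embryos, a log2 difference of 6.51 (SE 0.40, adjusted p = 4.26e-12, edgeR). ARR3 ENSDARG00000056511, a cone arrestin, had 366, 353, 320 and 289 CPM in DMSO larvae, against 0.550, 0.116, 0.239 and 0 CPM in DMSO embryos. The transducin beta subunit gnb3b had 324, 298, 572 and 367 CPM in DMSO larvae, against 0.400, 0.521, 0.239 and 7.42 CPM in DMSO embryos, where the last value is 1 count. All 3 were higher at 96 hpf in each DMSO library. The inhibitory subunit pde6ha had 78.8, 78.1, 117 and 101 CPM in DMSO larvae and at most 0.300 CPM in DMSO embryos, and the opsin kinase grk1b had 42.3, 36.9, 65.9 and 37.2 CPM in DMSO larvae and at most 0.347 CPM in DMSO embryos.

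Of the calcium sensors, rcvrna, a recoverin, which holds back opsin kinases at high calcium, had 51.7, 56.4, 59.3 and 39.7 CPM in DMSO larvae and 2 counts in all in DMSO embryos. RCVRN ENSDARG00000009637 had 187, 175, 218 and 164 CPM in DMSO larvae, against 2.15, 0.868, 0.836 and 7.42 CPM in DMSO embryos, the last being 1 count. RCVRN ENSDARG00000009637 had at least 3 counts in 10 of the 11 deep embryo libraries and was past the threshold (adjusted p = 1.02e-10, edgeR), while rcvrna had so many in 1 and its values are given without a test.

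A few members did not follow this direction. The exception in all 3 treatments was parapinopsinb, a parapinopsin, a family of opsins known from the pineal organ. It had 0.0531, 0.0808, 0.223 and 0.153 CPM in THC larvae, against 0.528, 0.703, 0.606 and 0.950 CPM in THC embryos. It had 0.166, 0.168, 0.105 and 0.0431 CPM in CBD larvae, against 0.603, 0.886, 0.465 and 0.822 CPM in CBD embryos. In DMSO it had 0.117, 0.0984, 0.0874 and 0.246 CPM in larvae, against 0.50, 0.984 and 0.597 CPM in the deep embryo libraries. Every larval library lay below every deep embryo library. Parapinopsinb had at least 3 counts in 7 of the 12 larval and in all 11 deep embryo libraries, so some larval values lie under the floor of detection. It passed the filter on low counts through its embryo level, so its values are given without a test. The log2 difference was −2.34 (THC, SE 0.44), −2.50 (CBD, SE 0.45) and −2.25 (DMSO, SE 0.46). With DESeq2 size factors it was −1.50, −1.67 and −1.44, and relative to the median of all genes −2.70, −2.75 and −2.57 with TMM.

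The guanylate cyclase activator guca1aa had 0.637, 0.687, 0.446 and 0.562 CPM in THC larvae, against 1.53, 1.24, 1.70 and 0.859 CPM in THC embryos, with no overlap. It was lower in THC larvae with TMM scaling (−1.19, SE 0.39, adjusted p = 0.00831, edgeR) but not past the threshold with DESeq2 size factors (−0.33, adjusted p = 0.438). In CBD and DMSO its differences were −0.41 (adjusted p = 0.342) and −0.64 (adjusted p = 0.160), and turned positive with DESeq2 size factors (0.43 and 0.18). GRK7 ENSDARG00000055534, an opsin kinase symbol, had 4.72, 5.41, 4.59 and 2.81 CPM in THC larvae, against 4.43, 3.68, 4.06 and 3.84 CPM in THC embryos. Its stage difference with TMM was 0.13 (THC, adjusted p = 0.699), −0.25 (CBD, adjusted p = 0.474) and 0.05 (DMSO, adjusted p = 0.887). With DESeq2 size factors it was 0.99 (THC, adjusted p = 0.00709), 0.58 (CBD, adjusted p = 0.103) and 0.89 (DMSO, adjusted p = 0.0229), so its call depends on the scaling. The other identifier with this symbol, GRK7 ENSDARG00000020602, averaged 101, 96.7 and 83.4 CPM in THC, CBD and DMSO larvae and rose in each treatment. The teleost multiple tissue opsin tmtops3a was also not called with TMM in any treatment (0.06, 0.46 and 1.15 for THC, CBD and DMSO), though DESeq2 size factors gave 1.29 (adjusted p = 0.0319) in CBD and 1.95 (adjusted p = 0.00448) in DMSO. The opsin opn6a was higher in THC larvae (1.32, adjusted p = 0.0288) and CBD larvae (1.64, adjusted p = 0.00892) than in embryos of the same treatment. In DMSO, opn6a had 11.9, 11.8, 8.22 and 12.4 CPM in larvae, against 2.3, 8.22 and 6.81 CPM in the deep embryo libraries, and was not called (0.99, adjusted p = 0.116). In DMSO, opn6a was called with DESeq2 size factors (1.82, adjusted p = 0.00594, edgeR). It was also called without the shallow DMSO library 4 and CBD embryo library 3 (1.02, adjusted p = 0.0327, edgeR). The cyclase symbol gc2 and GUCA1A ENSDARG00000101567 rose in CBD with TMM (adjusted p = 0.0187 and 0.000192), and were not called in THC or DMSO, where DESeq2 size factors gave an adjusted p of 0.00702 to 0.0369.

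In larvae, a few genes made up most of the signal of the set. The 10 genes with the highest DMSO means took 83.0% to 87.3% of the summed CPM of the 80 genes in the 12 larval libraries. Cone opsins took 46.6% to 56.3% of the summed CPM of the 80 genes.

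Of the tandem green opsin genes opn1mw1 to opn1mw4, opn1mw1 held 93.7% to 98.3% of the summed CPM in each larval library. Next came opn1mw2 with 16.6, 31.5, 35.9 and 22.8 CPM in THC larvae, 15.9, 32.9, 49.7 and 39.0 CPM in CBD larvae, and 9.63, 7.48, 37.7 and 28.2 CPM in DMSO larvae. The range of opn1mw2 over DMSO larvae enclosed that over THC larvae. Of the remaining pair, opn1mw3 lay between 0.0984 and 0.647 CPM, and opn1mw4 had 2 counts in CBD library 1 and 0 counts in the other 11 larval libraries. Of the tandem red opsin genes, opn1lw2 held 99.8% to 99.9% of the summed CPM and opn1lw1 the rest.

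The mix of cone opsins was alike over the treatments. OPN1SW, the short-wave opsin symbol, made up 39.2% ± 2.04 of the cone opsin CPM in THC larvae, 37.0% ± 2.28 in CBD larvae and 39.8% ± 2.34 in DMSO larvae (SD, n = 4 each). The green opsins made up 15.8% ± 1.17 in THC larvae, 17.2% ± 0.885 in CBD larvae and 15.4% ± 1.76 in DMSO larvae. The ranges of the groups overlapped for each opsin class, and these shares were not tested.

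**Figure D2:**
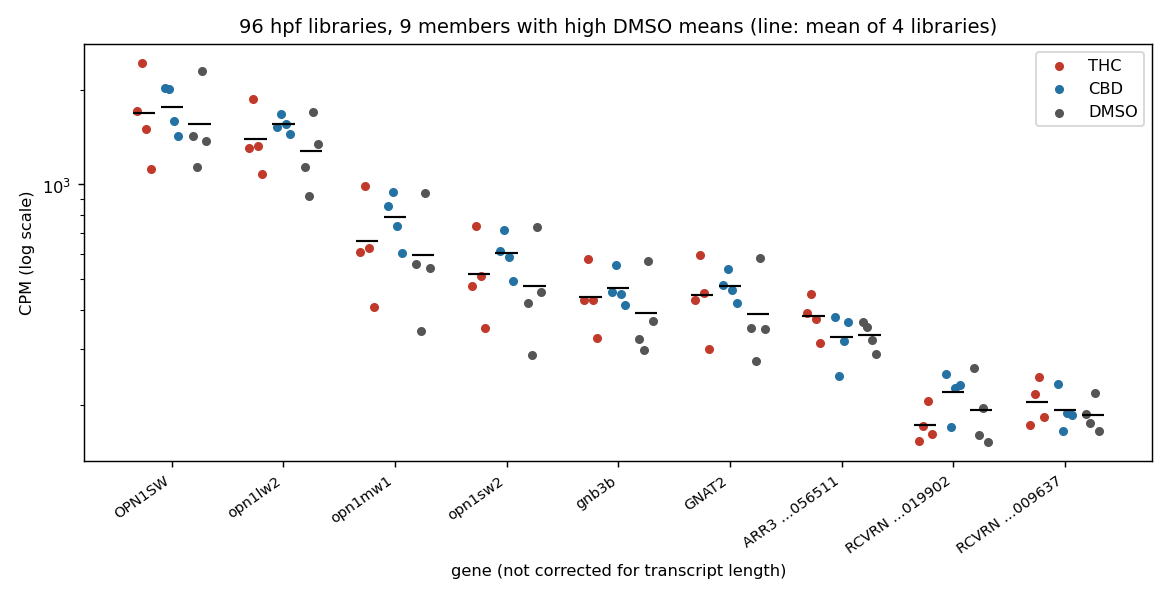
CPM (log scale) of 9 of the 10 members with the highest DMSO mean in each larval library, grouped as THC, CBD and DMSO, with the mean of 4 libraries as a line. The groups overlap for each of the 9 genes.

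THC against DMSO was the first treatment comparison at 96 hpf. No opsin or phototransduction gene passed the threshold: 0 of 71 tested members were called by edgeR's quasi-likelihood test, where 0.0514% of the 21409 genes tested (11 genes) were called, all of them higher, and DESeq2 called 0 members and 0.203% of its genes (53). At an unadjusted p under 0.05 there was 1 member, beside 3.75% of all genes. No member's THC libraries lay wholly outside the DMSO libraries, beside 0.962% of all genes wholly higher and 0.743% wholly lower. The log2 fold change was positive for 47 and negative for 24 of the 71 (52.8% of all genes were positive), with a median of 0.10 beside 0.01 for all genes. The median half-width of the 95% intervals of the members was 0.49 on the log2 scale. The other 9 members were not tested for low counts.

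By role, the median log2 fold change of THC over DMSO was 0.07 for rod genes (9 of 14 positive), 0.16 for cone genes (19 of 22 positive), 0.15 for calcium feedback and shutoff genes (11 of 15 positive) and −0.01 for non-visual opsins (8 of 17 positive).

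The cone opsins moved little against their spread. OPN1SW had 1715, 2431, 1501 and 1116 CPM in THC larvae, against 1422, 1138, 2296 and 1370 CPM in DMSO larvae. Red opn1lw2 had 1307, 1865, 1321 and 1080 CPM in THC larvae, against 1135, 919, 1698 and 1343 CPM in DMSO larvae. In both genes THC library 2 and DMSO library 3 stood highest, and the log2 fold changes were 0.13 (SE 0.25) and 0.15 (SE 0.20), both with an adjusted p of 1.0 (edgeR). Green opn1mw1 had 609, 992, 631 and 408 CPM in THC larvae, against 560, 343, 940 and 543 CPM in DMSO larvae. Blue opn1sw2 had 474, 740, 513 and 349 CPM in THC larvae, against 421, 287, 732 and 457 CPM in DMSO larvae. Their log2 fold changes were 0.16 (SE 0.30) and 0.14 (SE 0.27), again with an adjusted p of 1.0.

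The cone transducin subunits showed the same spread. GNAT2, the alpha subunit, had 431, 595, 452 and 300 CPM in THC larvae, against 351, 275, 582 and 349 CPM in DMSO larvae. Its partner gnb3b had 429, 579, 428 and 325 CPM in THC larvae, against 324, 298, 572 and 367 CPM in DMSO larvae. Their log2 fold changes were 0.21 (SE 0.23) and 0.19 (SE 0.22). Cone arrestin ARR3 ENSDARG00000056511 had 391, 449, 373 and 315 CPM in THC larvae, against 366, 353, 320 and 289 CPM in DMSO larvae, a log2 fold change of 0.22 (SE 0.14). None of the 3 was past the threshold (adjusted p = 1.0, edgeR).

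The 5 members with the smallest p between THC and DMSO larvae are given with their values. The guanylate cyclase activator guca1g had 7.69, 8.93, 10.0 and 7.61 CPM in THC larvae, against 5.01, 5.81, 6.60 and 7.79 CPM in DMSO larvae. Only DMSO library 4 reached the THC range, and the log2 fold change was 0.47 (SE 0.18, unadjusted p = 0.0227, adjusted p = 1.0, edgeR). The cone channel subunit cngb3.1 had 3.87, 4.16, 3.79 and 3.78 CPM in THC larvae, against 2.54, 1.77, 3.28 and 3.98 CPM in DMSO larvae, a log2 fold change of 0.45 (SE 0.21). A further cyclase activator, guca1c, had 26.8, 40.2, 20.6 and 16.5 CPM in THC larvae, against 20.7, 12.9, 23.7 and 17.2 CPM in DMSO larvae (log2 fold change 0.50, SE 0.25). The inhibitory subunit pde6ha had 115, 159, 137 and 88.5 CPM in THC larvae, against 78.8, 78.1, 117 and 101 CPM in DMSO larvae (log2 fold change 0.43, SE 0.22). The groups overlapped for all of these. PDE6G, the inhibitory subunit of the rod phosphodiesterase, lay the other way with 6.05, 6.26, 4.78 and 3.58 CPM in THC larvae, against 11.3, 6.84, 8.96 and 3.86 CPM in DMSO larvae (log2 fold change −0.57, SE 0.31, adjusted p = 1.0, edgeR).

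**Figure D3:**
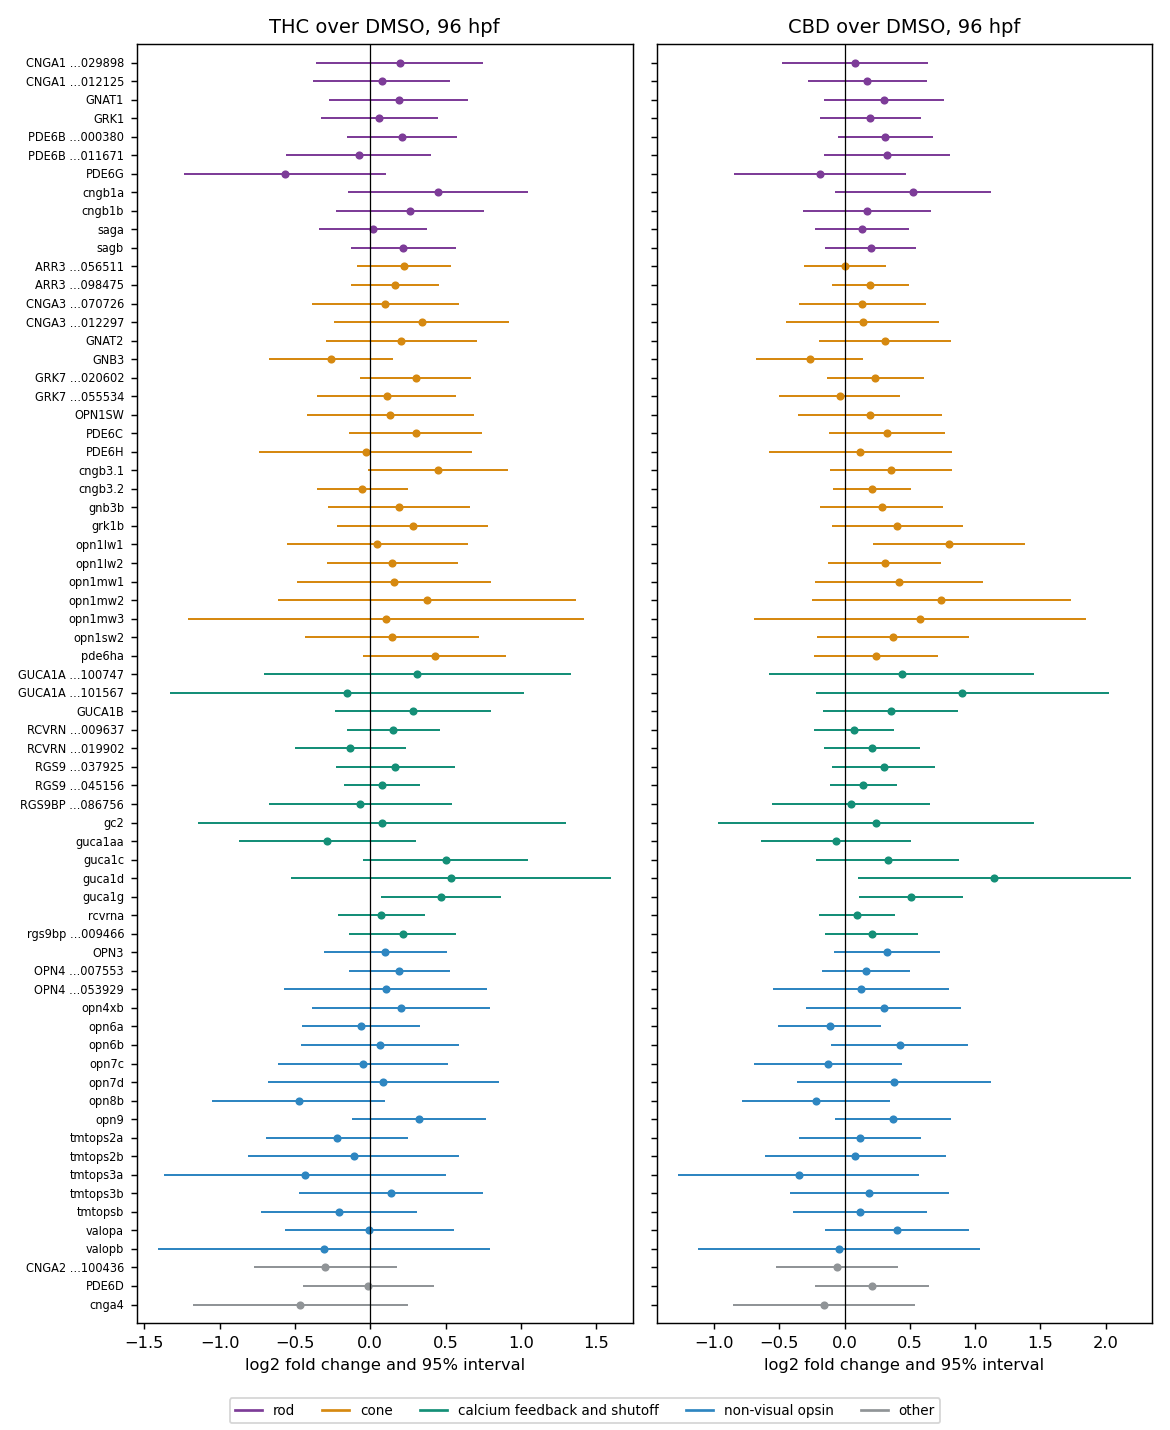
Log2 fold change of 68 of the 71 tested members with its 95% interval at 96 hpf, THC over DMSO on the left and CBD over DMSO on the right, ordered and coloured by role. Most points lie to the right of 0 in the cone and calcium rows, and the intervals of 67 (THC) and 65 (CBD) of these include 0.

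CBD larvae gave the same outcome against the same DMSO libraries. Of the 71 members 0 were called by edgeR (0 of 21409 genes, or 0%, were called at all) and 0 by DESeq2. At an unadjusted p under 0.05 there were 3 members, all higher, beside 1.92% of all genes in either direction. The log2 fold change was positive for 59 and negative for 12 of the 71 (53.2% of all genes were positive), with a median of 0.20 beside 0.01 for all genes. By role, the median was 0.17 for rod genes (12 of 14 positive), 0.26 for cone genes (20 of 22 positive), 0.24 for calcium feedback and shutoff genes (14 of 15 positive) and 0.12 for non-visual opsins (12 of 17 positive). No member's CBD libraries lay wholly outside the DMSO libraries, beside 0.677% of all genes wholly higher and 0.771% wholly lower. For 31 of the 71 members all 4 CBD libraries lay within the range of the DMSO libraries, and for 20 all 4 THC libraries did. The share over all genes was not computed, so these counts do not set the members apart. Over all genes, too, DMSO libraries varied more (median coefficient of variation 18.3%) than CBD (12.2%) or THC libraries (14.8%). THC and CBD were both set against the same 4 DMSO libraries, so their shared direction is not independent.

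OPN1SW had 2017, 2008, 1585 and 1423 CPM in CBD larvae, against 1422, 1138, 2296 and 1370 CPM in DMSO larvae. It varied less between CBD libraries than between DMSO libraries, the DMSO range enclosed the CBD range, and the log2 fold change was 0.20 (SE 0.25). Red opn1lw2 had 1527, 1678, 1555 and 1448 CPM in CBD larvae, against 1135, 919, 1698 and 1343 CPM in DMSO larvae, a log2 fold change of 0.31 (SE 0.20). Green opn1mw1 had 855, 945, 741 and 604 CPM in CBD larvae, against 560, 343, 940 and 543 CPM in DMSO larvae, a log2 fold change of 0.42 (SE 0.30). Blue opn1sw2 had 617, 719, 589 and 495 CPM in CBD larvae, against 421, 287, 732 and 457 CPM in DMSO larvae, a log2 fold change of 0.37 (SE 0.27). For each of these 4 opsins the adjusted p was 1.0 (edgeR).

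GNAT2 had 479, 540, 463 and 420 CPM in CBD larvae, against 351, 275, 582 and 349 CPM in DMSO larvae (log2 fold change 0.31, SE 0.23). Its partner gnb3b had 457, 556, 450 and 413 CPM in CBD larvae, against 324, 298, 572 and 367 CPM in DMSO larvae (0.29, SE 0.22). Of the abundant members, ARR3 ENSDARG00000056511 was closest to no difference, with 381, 247, 318 and 366 CPM in CBD larvae, against 366, 353, 320 and 289 CPM in DMSO larvae (0.00, SE 0.14). The recoverins RCVRN ENSDARG00000019902 and RCVRN ENSDARG00000009637 averaged 219 ± 34.9 and 193 ± 28.5 CPM in CBD larvae, against 192 ± 49.8 and 186 ± 23.1 CPM in DMSO larvae (SD, n = 4 each).

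The member with the smallest p was opn1lw1, the minor red opsin of the tandem pair. It had 1.46, 2.42, 3.04 and 2.07 CPM in CBD larvae, against 1.02, 0.935, 1.66 and 1.60 CPM in DMSO larvae. CBD library 1 lay within the DMSO range, and the log2 fold change was 0.80 (SE 0.27, unadjusted p = 0.00996, adjusted p = 1.0, edgeR). The activator guca1g had 8.52, 6.18, 11.5 and 9.14 CPM in CBD larvae, against 5.01, 5.81, 6.60 and 7.79 CPM in DMSO larvae (log2 fold change 0.51, SE 0.18). Another activator, guca1d, had 0.896, 1.40, 2.87 and 2.72 CPM in CBD larvae, against 0.470, 0.640, 1.05 and 1.44 CPM in DMSO larvae (log2 fold change 1.15, SE 0.48). These were the 3 members under an unadjusted p of 0.05. The rod channel subunit cngb1a had 3.12, 4.55, 2.94 and 3.66 CPM in CBD larvae, against 2.11, 2.02, 3.15 and 2.75 CPM in DMSO larvae (log2 fold change 0.52, SE 0.28). PDE6B ENSDARG00000000380 had 15.1, 18.4, 18.0 and 15.1 CPM in CBD larvae, against 12, 10.7, 18.4 and 13.3 CPM in DMSO larvae (log2 fold change 0.31, SE 0.17).

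CBD against THC addresses how the 2 cannabinoids differ. They are isomers, and CBD lacks the oxygen-containing ring of THC. As the doses are unknown here, whether exposure was matched is unknown too, and this was the 1 pair of compounds compared. At 96 hpf 0 of 71 members were called by edgeR (0 of 21409 genes, or 0%) and 0 by DESeq2, which called 14 genes (0.0793%). At an unadjusted p under 0.05 there was 1 member, beside 2.52% of all genes. The log2 fold change of CBD over THC was positive for 54 of the 71 (49.2% of all genes were positive), with a median of 0.11 beside −0.00 for all genes, and the median half-width of the 95% intervals was 0.49.

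The CBD and THC libraries did not overlap for opn1lw1 and tmtopsb, both higher in CBD, where 1.3% of all genes were wholly higher and 1.17% wholly lower. The red opsin opn1lw1 had 1.46, 2.42, 3.04 and 2.07 CPM in CBD larvae, against 1.33, 1.45, 1.40 and 1.12 CPM in THC larvae. The margin between the groups was 1.46 CPM in the lowest CBD library to 1.45 CPM in the highest THC library, and the log2 fold change was 0.75 (95% interval 0.18 to 1.33, unadjusted p = 0.0141, adjusted p = 1.0, edgeR). The teleost multiple tissue opsin tmtopsb had 4.51, 3.31, 3.29 and 3.23 CPM in CBD larvae, against 2.23, 2.91, 3.15 and 3.17 CPM in THC larvae (log2 fold change 0.32, SE 0.24). The next members by p were RCVRN ENSDARG00000019902 with 250, 169, 226 and 232 CPM in CBD larvae, against 153, 171, 206 and 161 CPM in THC larvae (log2 fold change 0.34, SE 0.17), and GUCA1A ENSDARG00000101567 with 1.43, 2.92, 1.12 and 1.29 CPM in CBD larvae, against 1.27, 1.05, 0.510 and 0.409 CPM in THC larvae (1.06, SE 0.53). The channel subunit cngb3.2 had 11.8, 11.5, 12.1 and 13.9 CPM in CBD larvae, against 9.34, 10.5, 11.7 and 9.45 CPM in THC larvae (0.26, SE 0.14). PDE6B ENSDARG00000011671 had 13.5, 15, 16.8 and 12.7 CPM in CBD larvae, against 8.86, 12, 13.2 and 9.66 CPM in THC larvae (0.40, SE 0.22). The groups overlapped for these last 4.

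The non-visual opsins overlapped in their summed level between the larval groups. Summed over the 24 genes, they had 65.8, 77.4, 75.8 and 69.0 CPM in THC larvae, 75.5, 79.9, 74.5 and 81.0 CPM in CBD larvae, and 66.2, 56.1, 83.2 and 72.4 CPM in DMSO larvae. The melanopsin OPN4 ENSDARG00000007553 averaged 17.3 ± 2.70 CPM in THC larvae, 17.0 ± 2.04 in CBD larvae and 15.4 ± 2.73 in DMSO larvae (SD, n = 4 each). Next by DMSO mean were opn6a with 10.4, 10.1 and 11.1 CPM and opn9 with 12.8, 13.2 and 10.4 CPM in THC, CBD and DMSO larvae. At the low end, opn7a had 0 counts in THC and CBD larvae and 1 count in each of DMSO libraries 3 and 4, and opn8a had 1 count in 1 library of each treatment. Of the genes with other known sites of use, PDE6D, a carrier of prenylated proteins in many cell types, averaged 16.1 CPM in THC larvae, 18.8 in CBD larvae and 16.5 in DMSO larvae. The olfactory channel subunits CNGA2 ENSDARG00000100436 and cnga4 averaged under 2 CPM in each larval group.

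Larval libraries of the same treatment differed widely in these genes. The coefficient of variation within a group had a median of 20.4% in THC larvae, 15% in CBD larvae and 28.7% in DMSO larvae over the 62 members of at least 1 CPM, beside 14.8%, 12.2% and 18.3% for all genes of that level. DMSO library 2 was the lowest of the 12 for 34 of the 71 members (47.9%), beside 10.6% of all genes, and THC library 2 was the highest for 18 members (25.4%), beside 11% of all genes. In DMSO library 3, 61 of 71 members were higher than in DMSO library 2, with a median ratio of 1.64, beside 49.4% of all genes and a median ratio of 0.995. The ratio was 2.02 for OPN1SW, 2.74 for opn1mw1 and 0.908 for ARR3 ENSDARG00000056511, so the arrestin did not share the gap seen in the opsins. The median log2 fold change of the members without DMSO library 2 was 0.00 for THC over DMSO and 0.11 for CBD over DMSO, and without DMSO library 3 it was 0.22 and 0.32. For THC it was 0.03 without THC library 2.

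**Figure D4:**
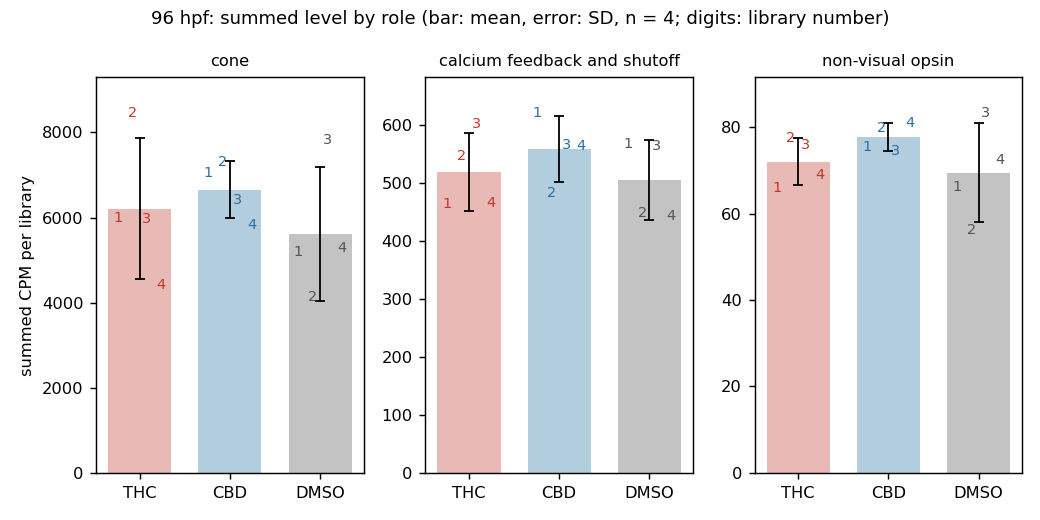
Summed CPM per larval library for 3 roles, with digits for the library number, bars for the mean and error bars for the SD of 4 libraries. In cone genes THC library 2 (8453 CPM) and DMSO library 3 (7829 CPM) stand highest and DMSO library 2 (4123 CPM) lowest.

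Markers of other parts of the eye and head did not all move with the members between libraries. The 20 lens genes, mostly crystallins, summed to 8098, 9910, 6925 and 8560 CPM in DMSO libraries 1 to 4, so the library with the lowest cone sum had the highest lens sum. In THC larvae the lens genes summed to 8064, 7213, 5407 and 7168 CPM and in CBD larvae to 9027, 6829, 7756 and 7669 CPM. Genes of the visual cycle and outer segment, which regenerate retinal and build the light-sensing discs, summed to 816, 746, 1104 and 882 CPM in DMSO larvae, in the same order of the highest and the lowest library as the cone genes. In THC larvae these lay between 842 and 1126 CPM and in CBD larvae between 978 and 1042 CPM. Genes of brain neurons summed to 2131 to 2302 CPM in THC larvae, to 2107 to 2462 CPM in CBD larvae, and to 2733, 2492, 2288 and 2103 CPM in DMSO larvae. The part of these tissues in the differences between libraries was not tested.

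Lists of other genes of the pathway, the eye, the head and the clock also held no called gene. Over all 21409 genes tested, edgeR called 0.0514% for THC against DMSO and 0% in the other 2 larval comparisons. At such shares, 0 calls do not set a list apart from other genes. The direction of the medians differed between the lists. At 96 hpf, THC against DMSO called 0 of 34 tested visual cycle and outer segment genes (median log2 fold change 0.13, 27 positive). It called 0 of 22 further phototransduction partners (0.07), 0 of 22 photoreceptor transcription factors (−0.06, 3 positive) and 0 of 27 genes listed for other retinal cells (−0.13). It also called 0 of 10 pineal genes (−0.02), 0 of 15 pigment epithelium and melanophore genes (0.02) and 0 of 19 lens genes (−0.19). The same held for 0 of 18 brain neuron genes (−0.02) and 0 of 27 clock and light-response genes (0.11). The list for other retinal cells is not specific to the retina. Its summed level averaged 7137 CPM in DMSO embryos, which have no eye, against 2207 CPM in DMSO larvae. In the same embryos and larvae, photoreceptor transcription factors averaged 433 and 793 CPM, and further phototransduction partners 519 and 1977 CPM. Visual cycle and outer segment genes averaged 242 and 887 CPM, so these lists too are not specific to the retina. CBD against DMSO called 0 in each of these lists too, with medians of 0.19 for the visual cycle and outer segment (30 of 34 positive), 0.06 for partners, −0.09 for transcription factors (7 of 22 positive), −0.05 for other retinal cells, −0.01 for pineal genes, −0.03 for pigment cells, −0.02 for lens, 0.04 for brain neurons and −0.03 for clock genes. CBD against THC called 0 in each list as well, with medians of 0.17 for lens (18 of 19 positive), 0.05 for the visual cycle and outer segment (20 of 34 positive), 0.07 for partners, −0.02 for transcription factors, 0.03 for other retinal cells, 0.02 for pineal genes, −0.08 for pigment cells, 0.05 for brain neurons and −0.10 for clock genes (7 of 27 positive). Lens genes thus lay on the same side as most members in this comparison, and their part in it was not tested. The retinal short-chain reductase DHRS3 ENSDARG00000044982 averaged 15.1 ± 2.44 CPM in THC larvae and 10.7 ± 0.793 in DMSO larvae (SD, n = 4 each). The groups did not overlap for DHRS3, and 0.962% of all genes were wholly higher in THC. Its log2 fold change was 0.51 (SE 0.15, unadjusted p = 0.00348, adjusted p = 0.780, edgeR). The lens crystallin CRYBA1 averaged 2.13 ± 0.362 CPM in THC larvae and 3.36 ± 0.401 in DMSO larvae, a log2 fold change of −0.63 (SE 0.18, adjusted p = 0.780, edgeR).

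In 10 hpf embryos, 25 of the 80 members had enough counts to be tested and none was called. Each of the 3 comparisons (THC with DMSO, CBD with DMSO, and CBD with THC) gave 0 of 25 members past the threshold by edgeR and 0 by DESeq2, where 0 of 17595 genes (0%) were called. At an unadjusted p under 0.05 there were 0 members in each, beside 0.278%, 5.41% and 9.1% of all genes. The median log2 fold changes of the members were 0.02, −0.07 and 0.02, beside 0.02, 0.06 and 0.05 for all genes, with median half-widths of the 95% intervals of 1.34, 1.34 and 1.26. Embryo libraries were also more uneven than larval ones, with a common biological coefficient of variation of 0.195 in larvae and 0.476 in embryos. Where DMSO library 4 had 0 counts it is left out of the values below, and where it had counts it is printed. This tilts the printed DMSO values upward. The fits keep this library throughout, so the fold changes rest on all 4 DMSO libraries.

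The 5 members with the highest embryo means over the 11 deep libraries were GRK7 ENSDARG00000055534, opn6a, PDE6B ENSDARG00000011671, PDE6B ENSDARG00000000380 and ARR3 ENSDARG00000098475. Over all 12 libraries, the shallow one included, opn1sw2 and PDE6D stood in place of the last 2. GRK7 ENSDARG00000055534 had 4.43, 3.68, 4.06 and 3.84 CPM in THC embryos, 2.09, 3.6, 7.55 and 5.81 CPM in CBD embryos, and 3.70, 5.03 and 3.52 CPM in DMSO embryos. The opsin opn6a had 4.17, 6.43, 4.06 and 2.08 CPM in THC embryos, 2.32, 2.48, 0.116 and 7.62 CPM in CBD embryos, and 2.3, 8.22 and 6.81 CPM in DMSO embryos. CBD library 3, with 1 count of opn6a, stood far below the others. This library stood apart beyond these genes. It had counts for 20212 genes, the fewest of the 11 deep libraries. Its chi-square per degree of freedom against the other CBD embryo libraries was 273 to 320, beside 38.8 to 120 between those others. Blue opn1sw2 had 2.0, 2.65, 3.03 and 2.80 CPM in THC embryos, 1.39, 2.07, 5.34 and 1.59 CPM in CBD embryos, and 2.65, 1.91, 1.55 and 14.8 CPM in DMSO embryos. PDE6D had 2.16, 1.14, 1.03 and 3.17 CPM in THC embryos, 4.50, 4.31, 2.79 and 1.70 CPM in CBD embryos, and 3.8, 1.74, 1.55 and 7.42 CPM in DMSO embryos.

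Between treatments in embryos, the smallest p with DMSO as the control belonged to PDE6C for THC. It had 0.633, 0.541, 0.848 and 0.769 CPM in THC embryos, against 1.40, 1.85 and 0.896 CPM in DMSO embryos, a log2 fold change of −0.96 (95% interval −2.06 to 0.14, unadjusted p = 0.0829, adjusted p = 1.0, edgeR). In CBD embryos PDE6C had 2.32, 0.531, 1.39 and 0.877 CPM, and CBD over THC gave 0.89 (95% interval −0.16 to 1.95, adjusted p = 0.556). The shutoff gene RGS9 ENSDARG00000037925 had 0.371, 0.236, 2.32 and 0.658 CPM in CBD embryos, against 0.400, 0.0579, 0.239 and 7.42 CPM in DMSO embryos, the last being 1 count, with a log2 fold change of 1.54 (95% interval −0.55 to 3.64, adjusted p = 0.824). The remaining members with the smallest p (gnb3b, GUCA1A ENSDARG00000100747, sagb, PDE6D, opn6a, opn1lw2 and PDE6B ENSDARG00000011671) had intervals that included 0 in each comparison named for them.

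Embryo libraries of the same treatment differed in markers of stage. The pluripotency factor nanog, a gene of the early embryo, lay at 11.1 CPM in THC library 4, 10.8 and 12 CPM in CBD libraries 1 and 2 and 10.2 CPM in DMSO library 1, against 76.7 to 219 CPM in the other 7 deep libraries. MYOG, the muscle transcription factor myogenin, had 173 counts in CBD library 1 and 71 counts in DMSO library 1, against 0 or 1 count in the other embryo libraries, so 2 of the 4 libraries low in nanog also stood apart in this gene. In the 4 libraries ARR3 ENSDARG00000098475 had 3.94, 8.85, 3.90 and 8.10 CPM, and at most 2.74 CPM in the other deep libraries, so it was highest in the 2 libraries with MYOG. PDE6B ENSDARG00000000380 had 4.61, 6.54, 3.66 and 5.25 CPM in the 4 and 1.27 to 2.74 CPM in the others. In the same libraries opn6a had 2.08, 2.32, 2.48 and 2.3 CPM, against 4.06 to 8.22 CPM in 6 others and 0.116 CPM in CBD library 3. This pattern was chosen after the values were seen, and the part of the stage of the embryos in it was not tested.

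**Figure D5:**
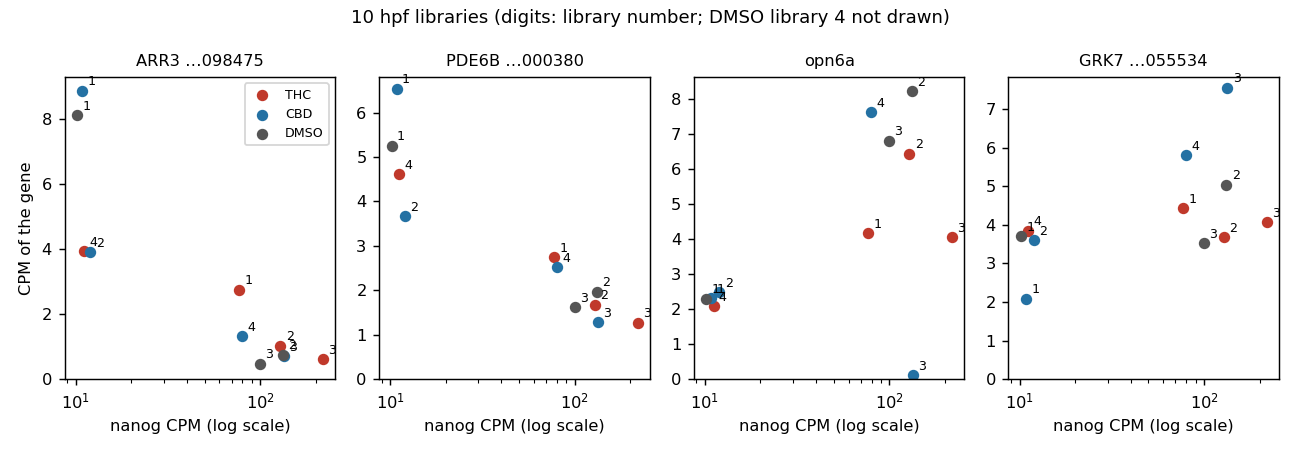
CPM of 4 members (y axes) against nanog CPM (x axes, log scale) in the 11 deep 10 hpf libraries, coloured by treatment, with digits for the library number. ARR3 ENSDARG00000098475 and PDE6B ENSDARG00000000380 are highest in the 4 libraries of 10.2 to 12 CPM of nanog, and GRK7 ENSDARG00000055534 has no such step.

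The genes that dominate larvae were at low level in embryos. Red opn1lw2 had 0.0528, 0.0541, 1.70 and 2.85 CPM in THC embryos 1 to 4. OPN1SW had 0, 0.108, 3.51 and 2.35 CPM in the same libraries. Thus THC libraries 3 and 4 lay above libraries 1 and 2 for both opsins. Not every abundant gene had such a step: opn1sw2 had 2.0, 2.65, 3.03 and 2.80 CPM in the same libraries, and had at least 3 counts in all 11 deep embryo libraries. The 10 genes with the highest DMSO larval means were set against their mean over all 12 larval libraries. In the 11 deep embryo libraries their median level lay between 0.0102% (THC library 2) and 0.239% (THC library 3) of that mean. The lens genes summed to 7.70, 6.49, 24.6 and 21.5 CPM in THC embryos 1 to 4, the same 2 libraries being higher, and to 25.6 CPM in CBD library 3. Whether these traces are embryo transcripts was not tested.

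The treatment differences were also compared between the stages. The test of the difference between the larval and the embryo effect, an interaction term over all 24 libraries, called 0 of 71 members for THC and 0 of 71 for CBD (edgeR), with smallest adjusted p of 1.0 and 0.715. Of all 22741 genes tested, 0 were called for either, so this does not set the members apart. Only 25 of the 80 members had enough counts to be tested at 10 hpf, so for most the embryo effect rests on few counts. At an unadjusted p under 0.05 there were 3 members for THC, among 539 of 22741 genes, and 6 for CBD, among 1523.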

How the data were processed

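Counts of reads per gene were deposited, 1 file per library with 35117 Ensembl identifiers, and no normalization. Per the labels' protocols, RNA of whole animals was made into TruSeq libraries and sequenced as paired reads. Per the submitters' processing notes, STAR, HTSeq, edgeR and the build GRCz11 were used, with no versions given in the sources used here; the names of the deposited files record reverse-strand counting in union mode. Symbols came from a gene name table covering 27000 identifiers. Transcript lengths and sequences were not used here.

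Each stage was fitted over its 12 libraries with filterByExpr (minimum count 10, total 15), TMM and the quasi-likelihood test of edgeR 4.0.16 in R 4.3.3, adjusted over all genes tested. Stage and interaction contrasts used all 24 libraries; those of THC and CBD were added after the data were seen. DESeq2 1.42.0, other filters, scalings and left-out libraries were alternatives. The fits were tested on simulated counts. All pairs of replicates differed beyond sampling noise. Genes given library by library were the 5 with the smallest p per comparison (12 for the stage contrast), the 10 highest in DMSO larvae, the 5 highest in embryos and the tandem opsins; tmtopsb, parapinopsinb, guca1aa and the other members little changed between stages, ARR3 ENSDARG00000098475, PDE6B ENSDARG00000000380, nanog and MYOG were chosen after their values were seen. The members and gene lists were chosen with earlier results of these data known. Results of 1 gene symbol among the members are not reported here; its identifiers stay in the counts and medians.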

Additional observations from a re-analysis of the deposited data

Results flagged for a closer look

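In 117 groups of 4 libraries, a library far from the other 3 was looked for with Dixon's ratio, and 8 groups had one. Chance gives about 1 in 20 for normally distributed values, a rate that does not hold for genes of 0 to 2 counts. In CBD larvae, library 3 had 4.33 CPM of the cone channel subunit cngb3.1 against 3.37 to 3.48 in the others, and library 2 had 2.92 CPM of the cyclase activator GUCA1A ENSDARG00000101567 against 1.12 to 1.43. In CBD library 1, opn1mw4 had 0.0663 CPM (2 counts) against 0 in the others. With the other 3 libraries equal, the ratio is 1 for any value, so this flag carries no weight. In THC embryos, library 1 had 0.317 CPM of gnb3b against 1.03 to 1.14, and 0.633 CPM of RGS9 ENSDARG00000037925 against 0.270 to 0.317. The other 3 lie in the shallow DMSO embryo library 4 and rest on 1 or 2 counts: gnb3b 7.42 CPM, RGS9 ENSDARG00000037925 7.42 CPM and opn1sw2 14.8 CPM, each above the other 3 libraries.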

How the results depend on the processing

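In all 6 treatment comparisons the count of members called was 0 under each alternative run. The counts called between stages ranged over 60 to 73 in THC, 63 to 72 in CBD and 61 to 71 in DMSO. The share of all genes called moved with the setting too: in DMSO, 42.7% were higher with TMM and 55% with DESeq2 size factors. These counts therefore do not set the members apart from other genes. The median log2 fold change of CBD over THC at 10 hpf moved to −0.17 without DMSO library 4 and CBD library 3, and ranged from −0.28 (without CBD library 1) to 0.0235 when single libraries were left out. Of 692 alternative values of 47 single-gene results, 675 kept their direction and side of the threshold, 17 changed sign and none became significant (lowest adjusted p 0.409). ARR3 ENSDARG00000056511 in CBD over DMSO at 96 hpf became −0.0149 with DESeq2 size factors, −0.0162 with the DESeq2 test and −0.0124 with no filter.

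Leaving out 1 library in turn gave these ranges of log2 fold change. For THC over DMSO at 96 hpf it was −0.0981 to 0.405 for OPN1SW, −0.0308 to 0.338 for opn1lw2, −0.111 to 0.491 for opn1mw1, −0.0822 to 0.456 for opn1sw2 and −0.237 to 0.0399 for RCVRN ENSDARG00000019902. For CBD over DMSO at 96 hpf it was −0.0838 to 0.107 for ARR3 ENSDARG00000056511 and −0.0385 to 0.175 for RCVRN ENSDARG00000009637. At 10 hpf it was −2.58 to 0.424 for GUCA1A ENSDARG00000100747 in THC over DMSO and −1.41 to 0.568 for opn1lw2 in CBD over DMSO. The cause was not tested.

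Libraries share numbers across groups, but same-numbered libraries did not always deviate together. Their correlations ran from −0.250 to 0.402 at 96 hpf and −0.545 to 0.653 at 10 hpf. The median at 96 hpf was 0.140 for pairs of the same number and −0.0971 for other pairs. At 10 hpf it was −0.0003 and −0.0048. Of the larval libraries 6 of 12, and of the embryo libraries 2 of 12, correlated best with their own number. At each stage 12 pairs shared a number and 36 did not, so some such matches can arise by chance. Deviations were taken from group means, so the 2 kinds of pair are not independent. With the replicate number as a block, 0 members were called in each treatment comparison, and 67 (THC), 68 (CBD) and 65 (DMSO) between stages. The share of all genes called with this block is not given, so these counts do not set the members apart. At 10 hpf 55 members had too few counts to be tested. Depth in the 11 deep embryo libraries was 15307666 to 22674319 counts, within the larval range of 14879976 to 29641377.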
